A study of Oryza sativa with 12 samples.

Results

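In germinating rice embryos, 59 genes stood at least 2-fold higher than with glucose in air in each of 3 situations: when glucose was replaced by mannitol, when an uncoupler was added to glucose, and when embryos with glucose were placed in the condition AC. The 59 genes were chosen by these values from 24161 probe sets (probes below) that map to 1 gene, in a table of 36643. Each group mean, on the log2 scale, had to exceed that of the glucose embryos by at least 1 in all 3 differences. The starch-degrading alpha-amylase gene RAmy3D also met these thresholds and was left out by the rule, as was a hexokinase gene listed as HXK6 and HXK7 (HXK6 below). A further 55 probes met the thresholds but map to no gene or to several and were not followed.

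Total RNA of isolated Oryza sativa embryos (cultivar Dongjin) was hybridised to 12 Affymetrix arrays, 2 for each of 6 conditions. All embryos were kept for 24 h in the dark at 28 °C in 10 mM calcium chloride. Glucose at 60 mM was the sugar in the condition Glc, and 60 mM of the sugar alcohol mannitol took its place in Mtl. In GlcDNP and MtlDNP it also held 0.08 mM 2,4-dinitrophenol (DNP), which the labels describe as a means to starve cells of energy in air. What AC stands for in GlcAC and MtlAC is not stated. It was taken to be the 1 other incubation of the treatment protocol, submerged in nitrogen-flushed medium and thus anaerobic. Each preparation pooled many embryos, and the 2 replicates are described as technical. The spread given below is therefore that between arrays, which may hold the same RNA.

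A plant cell meets loss of sugar, loss of the mitochondrial proton gradient and loss of oxygen with a partly shared set of responses, because each lowers the supply of ATP. The protein kinase SnRK1 is the best known sensor of low energy in plants, and in rice it links sugar starvation to the alpha-amylase genes through MYB factors and the kinase CIPK15. Rice is known for seeds that germinate under water, where starch breakdown and ethanol fermentation feed the embryo without oxygen. DNP carries protons across the inner mitochondrial membrane and so uncouples respiration from ATP synthesis.

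The values that chose the genes are given first, as a description. The Glc arrays are shared by all 3 differences. Over the 59 genes, Mtl exceeded Glc by a median log2 difference of 1.81, with a range of 1.06 to 4.7. GlcDNP exceeded Glc by a median of 1.63, from 1.01 to 4.01. GlcAC exceeded Glc by a median of 1.58, from 1.0 to 6.72. Among all probes with 1 gene, 2.28% lay at least 1 higher in Mtl, 4.08% in GlcDNP and 2.18% in GlcAC, and 0.248% did so in all 3. The largest of the 3 differences was that of Mtl in 28 genes, of GlcAC in 18 and of GlcDNP in 13. In 14 genes the 3 differences lay within 0.5 of each other. In 26 genes the smallest of the 3 lay under 1.2, so many members sit near the threshold. Just inside were LOC4335922, with a smallest difference of 1.0015, and LOC4327931, with 1.0017. Just outside were HXK6, at 0.9995 in GlcDNP minus Glc, and LOC9269871, at 0.9976 in Mtl minus Glc. HXK6 would thus not have been a member even without being named as an exception.

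The same rule was also applied to each array set alone. The replicate 1 arrays gave 85 genes, and 83 of these stood above Glc in all 3 differences on the replicate 2 arrays, as did 25.9% of all probes with 1 gene. Of the 65 genes given by the replicate 2 arrays, 57 stood above Glc in all 3 differences on the replicate 1 arrays, as did 20.1% of all probes with 1 gene. The 3 differences share 1 Glc array each time, and the replicates are technical and may hold the same RNA. These counts are therefore a description, and the agreement between replicates is no test of the set. The sets shared 39 genes, 45.9% of the first and 60.0% of the second.

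**Figure D1:**
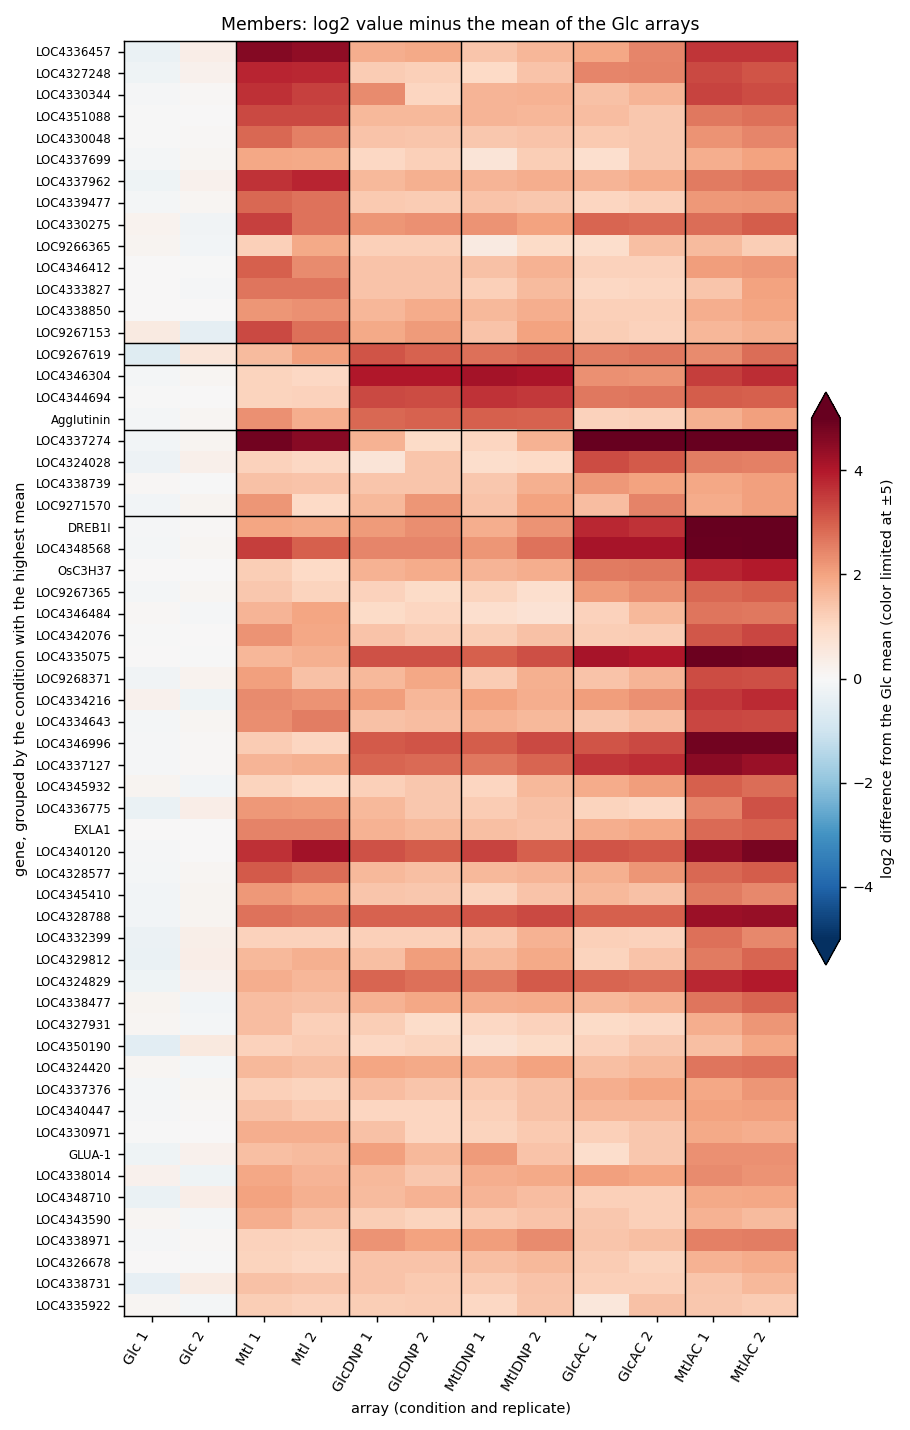
Log2 value of each of the 59 genes (vertical axis) on each of the 12 arrays (horizontal axis), as the difference from the gene's mean on the 2 Glc arrays, with color limited at ±5. Genes are grouped by the condition with the highest mean, which is MtlAC in 37, Mtl in 14, GlcAC in 4, MtlDNP in 3 and GlcDNP in 1; the Glc columns are the palest throughout because the rule chose genes that are low there.

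Levels with glucose in air were mostly not at the bottom of the range. The median of the 59 genes was 4.37 in Glc, against 3.45 for all probes with 1 gene, and 46 of the 59 lay above the median of all probes. Only LOC9271570, LOC9266365, LOC4337274 and LOC4340120 had a Glc mean under the 25th percentile of all probes, which was 2.162. Their levels in Glc are not shown to be above background, so the sizes of their differences from Glc are not settled. The median of the members was 6.13 in Mtl, 6.04 in GlcDNP, 6.06 in MtlDNP, 6.12 in GlcAC and 7.13 in MtlAC. The conditions that chose the genes thus lay close together in their medians, and MtlAC lay highest. The median of all probes with 1 gene was between 3.42 and 3.45 in every condition.

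Of the 59 genes, 5 have an informative symbol or synonym in the tables used, or 8.47%, against 11.4% of all probes with 1 gene. Those 5 encode a transcription factor, a zinc finger protein, an expansin-like protein, a lectin and a storage protein. The other 54 are given by their identifiers only, with no role. By biotype 56 genes are protein coding and 3 are long non-coding RNA genes (LOC9267619, LOC9271570 and LOC9267153).

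DREB1I (also ERF29, LOC4346220) belongs to the DREB1/CBF family of AP2/ERF transcription factors, known for responses to cold and dehydration. It stood at 4.59 and 4.68 on the Glc arrays, 6.6 and 6.53 in Mtl, and 6.74 and 6.96 in GlcDNP. It stood at 6.45 and 6.88 in MtlDNP, 8.39 and 8.25 in GlcAC, and 9.77 and 9.84 in MtlAC. The AC arrays were the highest with either sugar, no AC array overlapped an array of another condition, and the MtlAC arrays lay above the GlcAC arrays. Against Glc the group means were 3.83-fold higher in Mtl, 4.67-fold in GlcDNP and 12.9-fold in GlcAC.

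OsC3H37 (LOC4339379), a gene of the CCCH zinc finger family, whose proteins often bind RNA, had its highest values in the same 2 AC conditions. Its values were 6.18 and 6.19 in Glc, 7.41 and 7.18 in Mtl, and 7.93 and 8.02 in GlcDNP. They were 7.89 and 8.0 in MtlDNP, 8.79 and 8.8 in GlcAC, and 10.0 and 10.15 in MtlAC. The 4 DNP arrays overlapped between sugars, while the AC arrays did not.

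EXLA1 (LOC4331516) encodes an expansin-like A protein, of the superfamily whose best known members loosen plant cell walls. It stood at 5.2 on both Glc arrays, 7.68 on both Mtl arrays, and 6.94 and 6.83 in GlcDNP. It stood at 6.69 and 6.62 in MtlDNP, 7.03 and 7.14 in GlcAC, and 8.03 and 8.13 in MtlAC. Here the mannitol arrays without DNP were the highest, in air as well as under AC, and the 6 groups did not overlap.

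The gene listed as Agglutinin (LOC4335068), a name for carbohydrate-binding lectins, was highest with DNP. Its values were 5.45 and 5.62 in Glc, 7.83 and 7.33 in Mtl, and 8.41 and 8.49 in GlcDNP. They were 8.51 and 8.46 in MtlDNP, 6.68 and 6.74 in GlcAC, and 7.31 and 7.59 in MtlAC. All 4 DNP arrays lay above every other array, and the Mtl and MtlAC arrays overlapped.

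GLUA-1 (also Gt2, LOC4327027) encodes a glutelin, the main class of storage protein in rice endosperm. Its values were low in Glc, at 2.17 and 2.63, and stood at 3.89 and 4.0 in Mtl and 4.45 and 4.03 in GlcDNP. They were 4.53 and 3.84 in MtlDNP, 3.27 and 3.76 in GlcAC, and 4.68 and 4.67 in MtlAC. Apart from Glc, the arrays of several conditions overlapped. Of the 10 starchy endosperm markers measured, GLUA-1 was the 1 that met the thresholds against Glc. No value of any probe was exactly 0, so a value above 0 does not show that a marker was detected. The mean log2 level of this list was 1.79 to 1.87 on the Glc arrays, 2.07 to 2.1 in Mtl, 2.28 to 2.35 in GlcDNP, 2.49 to 2.63 in MtlDNP, 2.01 to 2.15 in GlcAC and 2.69 to 2.75 in MtlAC. On the Glc arrays the mean of the list lies under the 25th percentile of all probes in Glc, 2.162, and so is dim. The part of endosperm RNA in the level of GLUA-1 was not tested. In bulk samples, more cells of a type and more RNA per cell cannot be told apart.

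**Figure D2:**
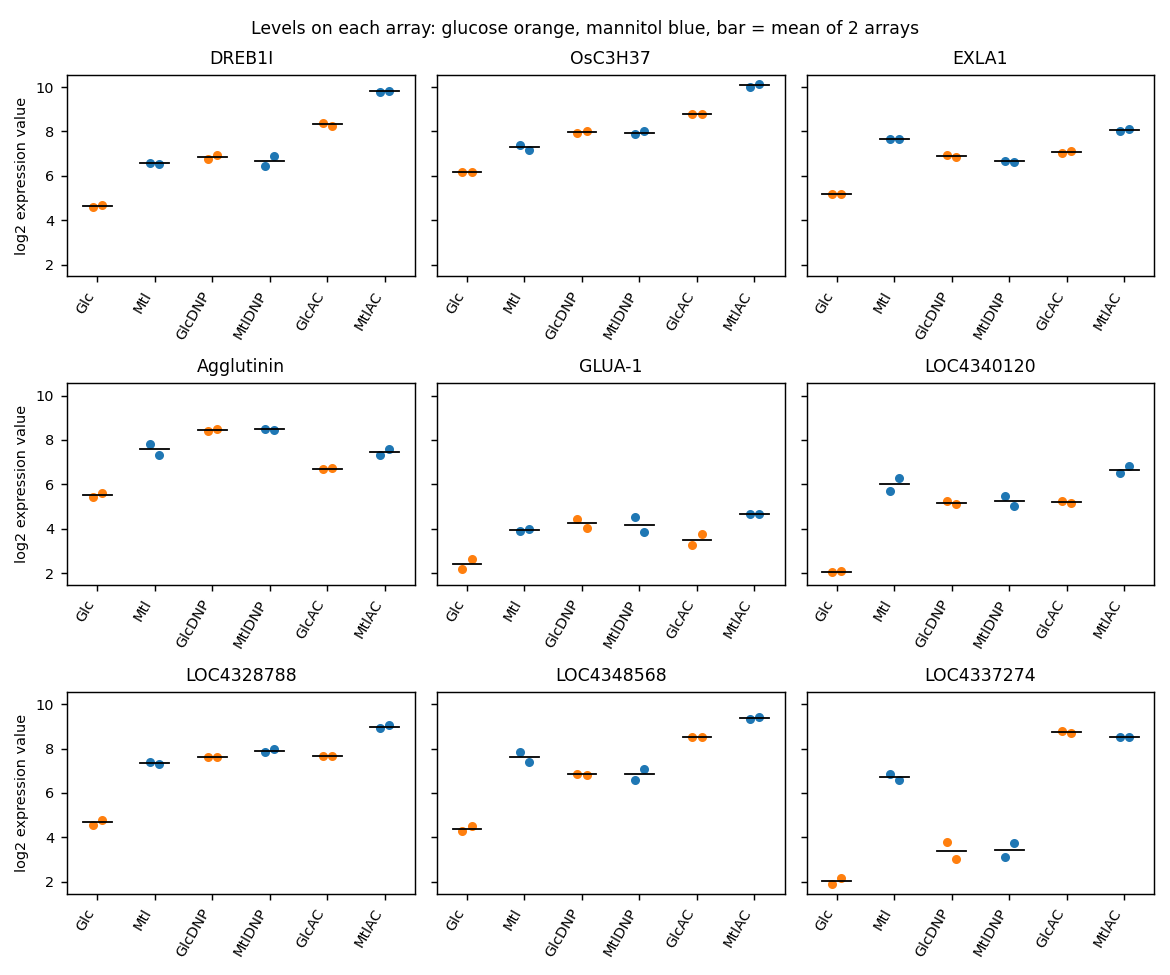
Log2 expression value (vertical axis) of 9 of the 59 genes on every array, by condition (horizontal axis), with glucose in orange, mannitol in blue and a bar at the mean of the 2 arrays. DREB1I and OsC3H37 reach their highest values in MtlAC, Agglutinin is highest with DNP at 8.41 to 8.51, and LOC4337274 stays at 3.0 to 3.77 with DNP against 8.51 to 8.77 under AC.

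Among genes without a symbol, the 4 with the largest smallest-of-3 differences were LOC4340120, LOC4328788, LOC4348568 and LOC4330275. LOC4340120 is dim in Glc, so its place in this order is not settled. It stood at 2.03 and 2.1 in Glc, 5.72 and 6.27 in Mtl, 5.24 and 5.11 in GlcDNP and 5.23 and 5.14 in GlcAC. Its MtlDNP values of 5.46 and 5.04 spanned those of both glucose conditions, and MtlAC reached 6.52 and 6.81. LOC4328788 was nearly level outside Glc, where it stood at 4.55 and 4.8. It held 7.4 and 7.29 in Mtl, 7.62 and 7.6 in GlcDNP, 7.83 and 7.98 in MtlDNP and 7.67 and 7.64 in GlcAC, and stood higher in MtlAC at 8.93 and 9.04. LOC4348568 had its highest values under AC, at 8.51 and 8.52 with glucose and 9.33 and 9.44 with mannitol, against 4.29 and 4.49 in Glc. LOC4330275 had its highest mean in Mtl through replicate 1, at 7.05, while replicate 2, at 6.37, lay within the range of 5.67 to 6.67 on the DNP and AC arrays.

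The genes differed among themselves in which condition was highest, as the heat map of the 59 genes shows. The identifiers in this and the next paragraph that the naming rule does not give were chosen after their values were seen. In 10 genes the Mtl mean exceeded both GlcDNP and GlcAC by at least 1. They were LOC4336457, LOC4337962, LOC4330344, LOC4351088, LOC4330048, LOC4327248, LOC9267153, LOC4346412, LOC4339477 and LOC4333827. Shares over all probes are not given here for this count or for the highest condition, so neither is shown to be particular to the members. LOC4336457 stood at 7.84 and 7.7 in Mtl, against 5.06 and 5.16 in GlcDNP and 5.21 and 5.72 in GlcAC. LOC4337962 stood at 9.57 and 9.76 in Mtl against 5.74 and 6.16 in Glc.

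A few genes were highest with DNP. LOC4346304 stood at 7.84 and 7.87 in GlcDNP and 8.01 and 7.92 in MtlDNP, against 3.77 and 3.94 in Glc and 4.98 and 4.88 in Mtl. LOC4344694 had a like order, at 8.17 and 8.13 in GlcDNP and 8.49 and 8.4 in MtlDNP, against 4.84 and 4.88 in Glc. In both genes the 4 DNP arrays lay above all others. LOC4337274 was low with DNP. It stood at 3.77 and 3.0 in GlcDNP and 3.09 and 3.76 in MtlDNP, against 6.84 and 6.6 in Mtl, 8.77 and 8.72 in GlcAC and 8.51 and 8.54 in MtlAC. Its Glc values of 1.88 and 2.17 are dim.

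The MtlDNP and MtlAC arrays had no part in choosing the genes, so the contrast between them is the 1 whose arrays are independent of the rule. It compares embryos on mannitol with the uncoupler in air and under AC. Of the 59 genes, 26 were called higher in MtlAC than in MtlDNP and 1 was called lower, by limma at an adjusted p under 0.05 and a log2 difference of at least 1. Among all 36643 probes 1.56% were called higher and 0.488% lower. The members' share called higher was 44.1%; they were chosen as responding genes and all probes were not, so the shares are a description. Their median log2 difference was 0.97, against -0.04 over all probes, and 54 of 59 lay above 0, against 45.4% of all probes. In 50 genes both MtlAC arrays lay above both MtlDNP arrays, and in 3 genes both lay below, against 18.8% and 23.7% of all probes. The SD of all values on an array was 1.639 and 1.675 in MtlDNP and 1.668 and 1.682 in MtlAC, so the range of values was alike on these arrays.

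The largest difference was that of LOC4337274, 34.3-fold higher in MtlAC (5.10 ± 0.286, SE, limma adjusted p = 2.24e-05). DREB1I was 8.77-fold higher (3.13 ± 0.185, limma adjusted p = 2.89e-05), and LOC4348568 was 5.83-fold higher (2.54 ± 0.213, limma adjusted p = 0.000228). OsC3H37 was 4.37-fold higher (2.13 ± 0.16, limma adjusted p = 0.000112). LOC4336457 was higher by 2.05 ± 0.251 and LOC4327248 by 2.01 ± 0.202. These 6 were the called genes with a difference of 2 or more. EXLA1 was 2.69-fold higher (1.43 ± 0.151, limma adjusted p = 0.000845), LOC4340120 2.66-fold (1.41 ± 0.225) and LOC4328788 2.11-fold (1.08 ± 0.163).

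Agglutinin was the 1 gene called lower in MtlAC, 2.04-fold (-1.03 ± 0.198, limma adjusted p = 0.0239). Its call was lost without any single array of the 4 compared. LOC4344694 (-0.57 ± 0.146) and LOC4346304 (-0.54 ± 0.162) also had both MtlAC arrays below both MtlDNP arrays and were not called. GLUA-1 stood at 0.49 ± 0.279 (0.84 and 0.15 without replicate 1 or 2 of MtlDNP) and LOC4330275 at 0.77 ± 0.235, and neither passed the test. The 3 long non-coding RNA genes stood at -0.23, 0.24 and -0.01 and were not called.

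The count of 26 rests partly on single arrays and on the pooled spread. Without replicate 2 of MtlAC it was 17, and LOC4340120 and LOC4328788 lost their calls. LOC4340120 also lost its call without replicate 2 of MtlDNP. With the 4 arrays fitted alone 7 genes were called higher, and EXLA1 and LOC4327248 were no longer among them. LOC4337274, DREB1I, LOC4348568, OsC3H37, LOC4336457, LOC9267365 and LOC4346484 were called in all 11 alternatives, and all 26 genes stayed above 0 in each.

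**Figure D3:**
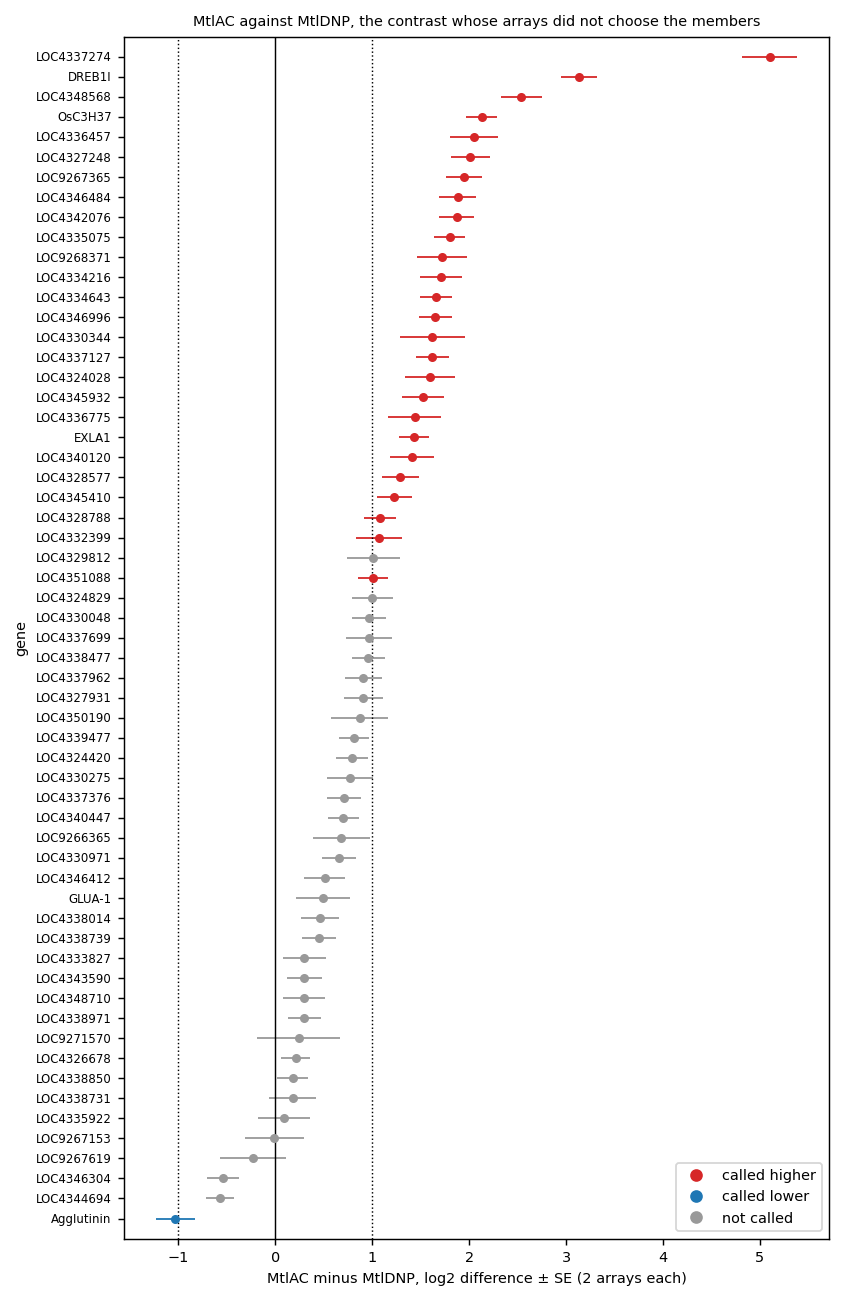
Log2 difference MtlAC minus MtlDNP (horizontal axis, ± SE, 2 arrays each) for each of the 59 genes (vertical axis), with dotted lines at a difference of 1 either way. The 26 genes called higher are red and Agglutinin, called lower, is blue; the 32 genes in grey were not called.

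With DNP present, replacing glucose by mannitol went with little difference, in these genes as over all probes with 1 gene. The MtlDNP arrays did not choose the genes but the GlcDNP arrays did, so these values are a description. All 59 genes differed by less than 0.5 between MtlDNP and GlcDNP, with a median of -0.01 and a range of -0.49 to 0.36. The median absolute difference was 0.0887, against 0.167 for all probes with 1 gene and against a median gap between the 2 arrays of a condition of 0.12 in GlcDNP and 0.21 in MtlDNP. None of the 59 differed by 1 or more, and of all probes with 1 gene 0.0993% lay at least 1 higher in MtlDNP and 0.153% at least 1 lower. At such shares, none of 59 is not a result about these genes. The share of all probes that differed by less than 0.5 is not given here.

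Under AC, the sugars differed more in these genes. In MtlAC, 24 of the 59 lay at least 1 above GlcAC and none at least 1 below, against 0.447% and 2.07% of all probes with 1 gene. The median difference was 0.92, against 0.03 over all probes with 1 gene. For DREB1I the levels were 8.32 and 9.80, for OsC3H37 8.79 and 10.08 and for EXLA1 7.09 and 8.08, with glucose and mannitol in that order. LOC4324028 and LOC4337274 stood lower with mannitol, at 7.15 against 7.75 and at 8.52 against 8.74. The GlcAC arrays chose the genes, so no test is given for this difference.

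**Figure D4:**
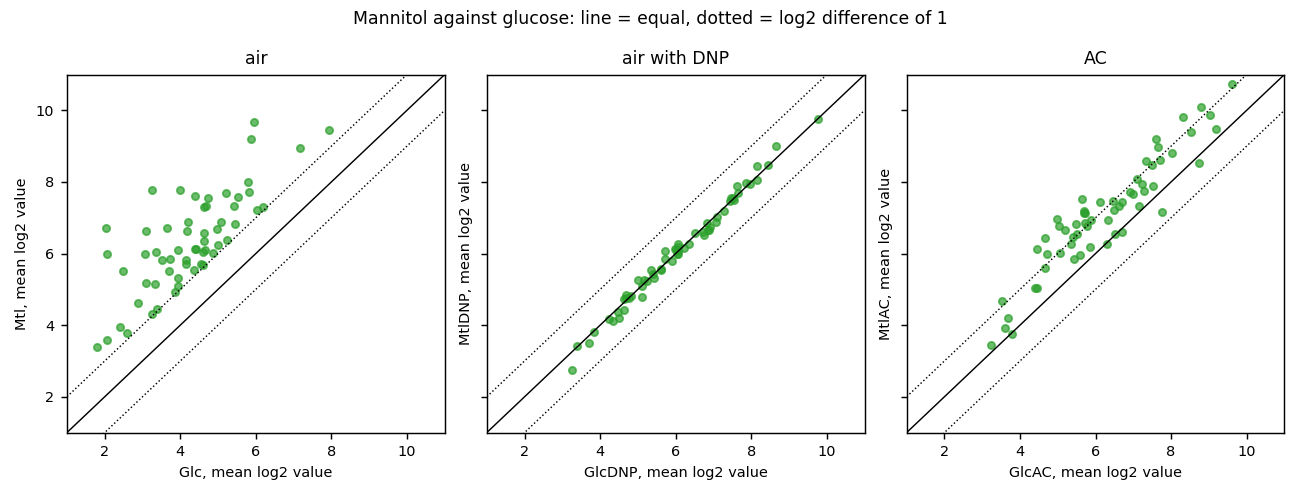
Mean log2 value with mannitol (vertical axis) against that with glucose (horizontal axis) for the 59 genes, in air, in air with DNP and under AC, with a line of equality and dotted lines at a difference of 1. In air all genes lie above the upper dotted line by the rule, with DNP all lie within 0.5 of equality, and under AC 24 lie at least 1 above it.

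Without glucose, the shift from air to DNP moved the genes both ways, and the shift to AC moved more of them up than down. These differences use the Mtl arrays, which chose the genes, and are given with no test. MtlDNP lay at least 1 above Mtl in 7 genes and at least 1 below in 14, where 5.27% and 11.2% of all probes with 1 gene did so. MtlAC lay at least 1 above Mtl in 22 genes and at least 1 below in 2, against 3.42% and 8.83%. With glucose, GlcAC lay at least 1 above GlcDNP in 6 genes and at least 1 below in 2, against 4.26% and 1.25%, and the median difference was -0.01. Relative to the Glc arrays, which are the rule's own reference, MtlDNP stood at least 1 higher in 53 genes and MtlAC in all 59, against 4.28% and 3.7%.

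The genes named as exceptions were also higher in MtlAC than in MtlDNP. RAmy3D (LOC4345814) stood at 3.36 and 3.24 in Glc, 7.82 and 7.81 in Mtl, 5.61 and 5.53 in GlcDNP and 6.68 and 6.45 in GlcAC. In MtlAC it stood at 8.4 and 8.48, 7.83-fold higher than the 5.4 and 5.54 of MtlDNP (2.97 ± 0.161, limma adjusted p = 1.85e-05). HXK6 (LOC4338010), a symbol that the tables also list for another gene, was 8.88-fold higher in MtlAC than in MtlDNP (3.15 ± 0.235, limma adjusted p = 0.00011). Its levels were 5.24 and 5.79 against 2.43 and 2.3, and 1.53 and 1.58 in Glc, where it is dim.

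Most genes of the pathways that the title of the study touches did not meet all 3 thresholds. Of all probes with 1 gene only 0.248% met them, so this is not particular to these pathways. Of 26 lists of genes with symbols, 4 held a gene that met them: AP2/ERF factors through DREB1I, expansins through EXLA1, starchy endosperm markers through GLUA-1 and starch breakdown through RAmy3D. Of 13 genes in the sugar and energy signalling list, 2 lay at least 1 higher in Mtl than in Glc, none in GlcDNP and 2 in GlcAC. The list holds LOC9270098, listed as OSK1 and SKP1, through a symbol it shares with the SnRK1A gene LOC4339410. CIPK15, the kinase that links low sugar and low oxygen to alpha-amylase, stood at 1.15 in Glc, 5.84 in Mtl, 1.91 in GlcDNP and 2.23 in GlcAC, and so missed the threshold with DNP. Its levels in Glc and GlcDNP are dim. Of 5 genes of the glyoxylate cycle and gluconeogenesis, 3 lay at least 1 higher in Mtl, none in GlcDNP and 1 in GlcAC. ICL, which encodes isocitrate lyase, exceeded its Glc level by 3.90 in Mtl, 0.78 in GlcDNP and 0.69 in GlcAC. Of 6 genes in the amino acid catabolism list, 4 lay at least 1 higher in Mtl and none in GlcDNP or GlcAC. The AS2 entry of that list, not among those 4, is also listed as LBD6, so its place there rests on its symbol alone. None of the 8 autophagy genes lay at least 1 higher in any of the 3. Of all probes with 1 gene 2.28% did so in Mtl, 4.08% in GlcDNP and 2.18% in GlcAC. At such shares, none of 8 is not a result about autophagy.

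In MtlAC minus MtlDNP, where 1.56% of all probes were called higher, 3 of these lists had 2 genes called higher each. In the signalling list of 13, with the SKP1 entry, they were HXK6 and CIPK15 (1.61 ± 0.335, limma adjusted p = 0.0335), and the median was 0.03. CIPK15 is dim in MtlDNP, at 1.81, so the size of its difference is not settled. ICL was called higher (1.74 ± 0.222, limma adjusted p = 0.00277), 1 of 2 genes called in its list of 5. In the amino acid catabolism list of 6, with the AS2 entry, the 2 were IVD of leucine breakdown (1.86 ± 0.165) and MCCA of the same pathway (1.64 ± 0.215). No gene of these 3 lists was called lower.

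DREB1I is 1 of 17 measured genes of the AP2/ERF list. Of these 17, 8 lay at least 1 above Glc in GlcDNP and 3 in GlcAC. In Mtl DREB1I did so by the rule, and no other of the 17 did. Among all probes with 1 gene the shares were 4.08% in GlcDNP, 2.18% in GlcAC and 2.28% in Mtl. DREB1J, its next neighbour in the RefSeq gene order on chromosome 8, stood at 4.57 in Glc and in Mtl, 7.07 in GlcDNP, 7.09 in MtlDNP, 6.23 in GlcAC and 6.56 in MtlAC. CBF3 (also DREB1A) lay 0.95 above Glc in Mtl, 3.21 in GlcDNP and 1.90 in GlcAC, just outside the rule. In MtlAC minus MtlDNP, DREB1I was the 1 gene of the 17 called, where 1.56% of all probes were called higher and 0.488% lower. DREB1J stood at -0.53 ± 0.171 and CBF3 at -0.24 ± 0.279. DREB1B (-0.97 ± 0.216, limma adjusted p = 0.0444) and DREB1H (-0.81 ± 0.177, limma adjusted p = 0.0427) stood lower in MtlAC, past the adjusted p but under the difference of 1. The median of the 17 was -0.14.

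The labelled tissue was checked with 12 embryo markers, among them the oleosin gene OLE18 and the late embryogenesis gene EM. Their mean log2 level was 5.19 to 5.22 on the Glc arrays, against a median of all probes of 3.274, while the 9 green shoot markers lay between 2.36 and 2.79 on every array. The embryo markers also moved with the conditions, with means of 5.28 to 5.3 in Mtl, 6.64 to 6.77 on the DNP arrays, 5.7 to 5.73 in GlcAC and 6.11 to 6.34 in MtlAC. In GlcDNP, 9 of the 12 lay at least 1 above Glc, against 4.08% of all probes with 1 gene. None of them met all 3 thresholds, which 0.248% of all probes with 1 gene met, and RAB21, with 0.92 in GlcAC, came closest. In MtlAC minus MtlDNP their median was -0.60, opposite in sign to the median of the 59 genes, and RAB16C was called lower (-1.02 ± 0.17, limma adjusted p = 0.0122).

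The genes are spread over 11 of the rice chromosomes, with 11 genes on chromosome 5 and 9 on chromosome 4 as the highest counts. The share of all probes on each chromosome is not given here, so these counts do not show crowding. In the RefSeq gene order, 3 pairs of members had fewer than 10 genes between them. They were LOC4334216 and LOC9267365 on chromosome 3, with 5 genes between, Agglutinin and LOC4335075 on chromosome 4, with 6, and LOC4338731 and LOC4338739 on chromosome 5, with 6. Both genes of the chromosome 3 pair were called higher in MtlAC than in MtlDNP (1.71 ± 0.213 and 1.95 ± 0.186). In the chromosome 4 pair, LOC4335075 was called higher (1.80 ± 0.159) and Agglutinin lower. No member's gene had a further probe among the probes with 1 gene, so each rests on 1 such probe. Probes that map to several genes or to none were not searched.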

How the data were processed

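The deposited log2 values of 36643 probes on 12 arrays were used as they stand. Per the labels, the authors computed them with RMA in Expression Console at the core level, and the submitters' processing notes list Affymetrix Power Tools. Their versions, the genome build and the annotation are not stated there, and the log base was taken as 2 from the range of -0.49 to 13.12. For arrays, their number limits the precision.

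Probes were named through the platform's table (24161 with 1 gene, 90 with several, 12392 unnamed here). All 24161 were found in RefSeq's gene table (assembly GCF_034140825.1), used for names and gene order only.

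The contrast MtlAC minus MtlDNP was fitted with limma 3.58.1 in R 4.3.3 over all 12 arrays and probes, 1 coefficient per condition, no trend in the empirical Bayes step (degrees of freedom 6 residual, 3.82 prior), p-values adjusted by Benjamini-Hochberg over all probes. The fit was tested on simulated data. It had no replicate block, since the labels do not say that replicate numbers mark a shared batch. Alternatives were other scaling, filters, models and left-out arrays.

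Genes named are the members with an informative symbol, the 4 others with the largest smallest-of-3 difference, the 4 others with the largest call each way, the nearest to the threshold, and list members. The members and the 26 gene lists were chosen with earlier results of these data known. Symbol patterns of the lists were completed after the tables were seen, and the lists hold only genes with a usable symbol. Promoter motifs were planned and not analysed here.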

Additional observations from a re-analysis of the deposited data

Results flagged for a closer look

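The means of GLUA-1, the glutelin gene, differed in opposite directions between AC and DNP with the 2 sugars. With mannitol the log2 difference MtlAC minus MtlDNP was 0.49 ± 0.279 and did not pass the test (limma adjusted p = 0.459), with 0.15 without replicate 2 of MtlDNP and 0.84 without replicate 1. With glucose the difference GlcAC minus GlcDNP was -0.73. The arrays compared did not overlap with either sugar. The difference between these differences was not tested, since the GlcAC and GlcDNP arrays chose the genes. The values lay between 3.27 and 4.68 outside Glc, where the medians of all probes were 3.231 to 3.295. The MtlAC mean was at percentile 80.3 of all probes and the Glc mean at percentile 30.1.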

How the results depend on the processing

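The rule gave 59 genes, 112 at a threshold of 0.8 and 19 at 1.5, and 55 to 80 when 1 array was left out. After quantile re-normalization it gave 66, of which 57 were among the 59. For MtlAC minus MtlDNP, leaving out 1 array gave 17 to 24 members called higher and 0 to 0 called lower, and 290 to 548 and 87 to 180 of all probes; the lone array left in a group is then assumed to vary like the others. With the 4 arrays alone the counts were 7 and 0 of members and 106 and 10 of all probes, a fit with fewer samples. Members called lower were also 0 after quantile re-normalization and with treat at a fold of 1.2. Over all probes treat called 94 lower and the adjusted p alone 331. With the replicate block 26 members and 566 probes were called higher; replicate 1 minus replicate 2 correlated at 0.038 between MtlDNP and MtlAC, and the numbers were not taken as pairs. LOC4335922 stood at -0.08 without replicate 1 of MtlDNP and at 0.27 without replicate 2. Of 154 values of named genes under alternatives, 138 kept direction and call, 14 lost the call, 1 gained it and 1 reversed. The causes were not tested. Dim levels in Glc limit the differences of 4 members.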

Other observations

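In the heat shock, WRKY and NAC lists some genes lay at least 1 above Glc both in GlcDNP and in GlcAC, and none did in Mtl. The fermentation and MYB lists each had 1 such gene in GlcAC and none in GlcDNP or Mtl. Of 47 heat shock factor and protein genes, 23 lay at least 1 higher in GlcDNP and 19 in GlcAC, and none in Mtl, so none is among the 59. Others of the list stood lower, such as HSP17.9B, at -3.2 in GlcDNP minus Glc and -2.94 in GlcAC minus Glc. Of 6 WRKY factor genes 3 lay at least 1 higher in GlcDNP, 2 in GlcAC and none in Mtl. Of 10 NAC factor genes 2 did so in GlcDNP, 2 in GlcAC and none in Mtl. Of 76 cell cycle and DNA replication genes none did so in any of the 3. Among all probes with 1 gene the shares were 4.08% in GlcDNP, 2.18% in GlcAC and 2.28% in Mtl, and the Glc arrays are shared by these differences. In Mtl some genes of the WRKY, NAC and heat shock lists fell just short of the threshold. OsWRKY62 stood 0.97 above Glc, NAC068 0.89 and hsp17.9 0.88, while others did not come close, such as NAC067 at 0.05 and WRKY51 at -0.21. That none of these lists' genes passed in Mtl thus rests partly on the threshold.

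Of 3 fermentation genes, 2 were called higher in MtlAC than in MtlDNP, where 1.56% of all probes were. The pyruvate decarboxylase gene PDC2 (LOC4332519) was higher in MtlAC by 1.94 ± 0.176 (limma adjusted p = 0.000342), and the alcohol dehydrogenase gene Adh2 by 1.68 ± 0.203 (limma adjusted p = 0.00202). PDC2 stood at 7.99 in Glc, 6.38 in MtlDNP and 8.32 in MtlAC, so the MtlDNP level lay below that of Glc. Against Glc, neither lay higher in Mtl or GlcDNP, and in GlcAC minus Glc Adh2 stood at 1.54 and PDC2 at 0.68. Adh2 is dim in MtlDNP, at 1.75, so the size of its difference is not settled.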
